A study of Homo sapiens with 31 samples.

Results

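The 8 genes F3, TFPI, TFPI2, PLAT, PLAU, PLAUR, SERPINE2 and THBD were followed across 31 arrays of PC3 prostate carcinoma xenografts. They belong to the start of coagulation and to plasminogen activation, were listed by name, partly selected on the measured levels of F3 and PLAT in untreated tumours, and make up 8 of the 17314 genes measured. Each was read by 1 probe set that carried its symbol alone. PC3 is an established cell line from a human prostate carcinoma. D4 and D3 are clones of it that had been passaged in animals and are labelled resistant to cyclophosphamide (CPA), an alkylating cytotoxic drug. A3 is a clone passaged in animals and labelled sensitive, and wt is the sensitive line before passage in animals. Tumours of all 4 lines were grown to a mean volume of 30 mm3. One set of each line was given CPA at 120 mg/kg into the peritoneal cavity, and the other served as control. There were 4 arrays for each of CPA-treated D4, control D4, CPA-treated D3, control D3, CPA-treated A3, CPA-treated wt and control wt, and 3 for control A3. D4, D3 and A3 are 1 clone each, so that resistance and other differences between clones cannot be told apart. Likewise wt is the only line not passaged in animals, so passage and other differences of the clones from wt cannot be told apart. The labels do not say that the arrays of a group came from different animals, so the p-values reflect spread among these arrays only, part of which may be technical.

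Tissue factor, the product of F3, is a membrane receptor that binds factor VIIa and so starts the extrinsic pathway of coagulation. TFPI is the inhibitor of that complex. The plasminogen activators tPA (PLAT) and uPA (PLAU) turn plasminogen into plasmin, which dissolves fibrin and breaks down matrix, and uPAR (PLAUR) holds uPA at the cell surface. TFPI2 is a Kunitz-type inhibitor of plasmin and related proteases, SERPINE2 (protease nexin-1) is a serpin that inhibits thrombin and the plasminogen activators, and THBD (thrombomodulin) turns thrombin toward activation of protein C. Many carcinoma cells make tissue factor and parts of the uPA system themselves, and PC3 is known as a line that makes uPA.

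The promoters of F3, TFPI and TFPI2 are shown because, with PLAT, these genes had the widest spans between group means. Each is the 250 bases before the RefSeq transcription start in GRCh38.p14, read on the minus strand and written 5′ to 3′. F3 lies at chr1:94541760-94542009, TFPI at chr2:187554436-187554685 and TFPI2 at chr7:93890754-93891003. Capitals mark matches to the AP-1 motif TGANTCA and to the GC box GGGCGG, both searched on both strands, and none of the marked matches overlap each other.
F3: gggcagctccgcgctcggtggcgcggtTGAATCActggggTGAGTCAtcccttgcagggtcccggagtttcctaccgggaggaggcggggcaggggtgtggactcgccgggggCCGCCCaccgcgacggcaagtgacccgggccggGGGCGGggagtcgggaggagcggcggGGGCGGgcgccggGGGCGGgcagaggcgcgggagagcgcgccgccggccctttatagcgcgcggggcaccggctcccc
TFPI: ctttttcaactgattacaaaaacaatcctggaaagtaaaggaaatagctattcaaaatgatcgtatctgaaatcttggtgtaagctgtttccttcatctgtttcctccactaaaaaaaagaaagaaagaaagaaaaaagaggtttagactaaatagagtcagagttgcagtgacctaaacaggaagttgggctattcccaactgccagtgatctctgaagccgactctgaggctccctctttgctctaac
TFPI2: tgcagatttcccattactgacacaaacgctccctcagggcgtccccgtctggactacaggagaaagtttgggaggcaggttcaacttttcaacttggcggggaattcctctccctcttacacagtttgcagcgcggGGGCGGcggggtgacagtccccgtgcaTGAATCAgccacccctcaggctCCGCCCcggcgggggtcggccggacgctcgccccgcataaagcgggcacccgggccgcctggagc
The F3 window held 2 AP-1 matches, 223 and 210 bases before the start, and 4 GC boxes. The TFPI2 window held 1 AP-1 match 87 bases before the start and 2 GC boxes, and the TFPI window held 0 GC boxes and no AP-1 match. Among 35116 RefSeq promoter windows of the same length, 6.57% held at least 1 AP-1 match, 0.402% held 2 or more and 42.6% held a GC box. Promoter windows were used for 6 of the 8 genes, with 8 starts in all, and none was used for PLAT or THBD. AP-1 matches stood in F3, TFPI2 and PLAUR. These are matches of letters and not measured binding.

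Values are log2 expression levels, on which a difference of 1 is a doubling. Replicate arrays of a group correlated at 0.985 to 0.997 across genes. The label of carcinoma epithelium was borne by KRT8 (mean level 9.92) and KRT18 (10.0), and 4 of 6 epithelial markers lay above the median gene, whereas 0 of 3 measured markers of differentiated prostate luminal cells did. Of the markers of other cells, 3 of 10 endothelial, 5 of 10 fibroblast, 1 of 8 myeloid and 0 of 8 platelet genes lay above the median gene. In CPA-treated tumours the mean level of the 10 endothelial markers was 6.38 to 6.42 in D4, 6.47 to 6.62 in D3, 6.56 to 6.6 in A3 and 6.47 to 6.53 in wt. That of the 10 fibroblast markers was 6.43 to 6.61 in D4, 6.41 to 6.51 in D3, 6.30 to 6.42 in A3 and 6.32 to 6.60 in wt. The part of such cells in the results on the 8 genes was not tested. In whole tumours, fewer cells of a type and less RNA per cell cannot be told apart. The tumours are xenografts of a human line, read on an array for human genes. Whether the endothelial, fibroblast, myeloid and platelet signals came from cells of the host animal was not tested.

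**Figure D1:**
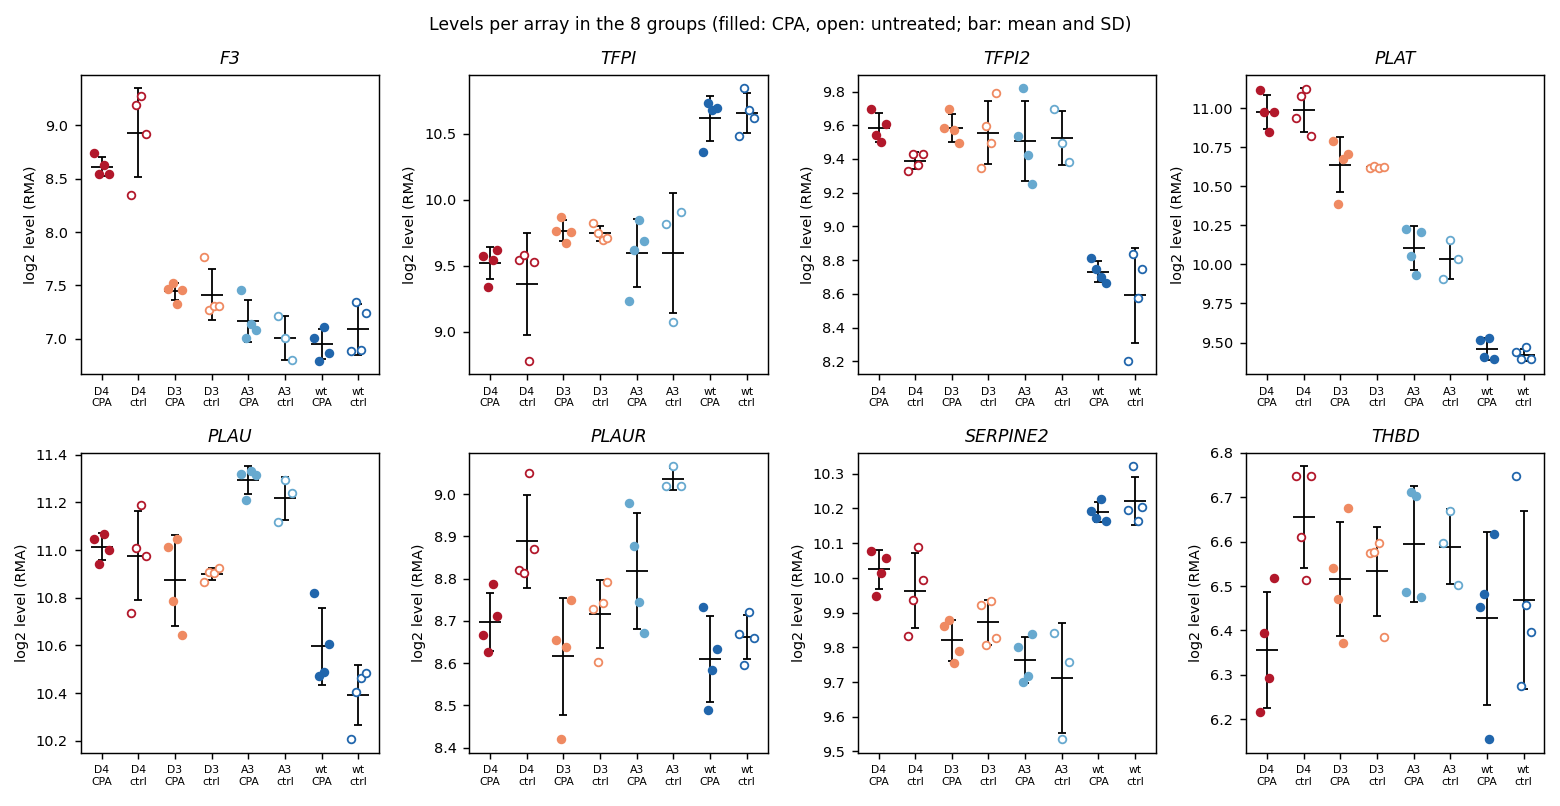
Log2 level of each of the 8 genes (vertical axis) in every array of the 8 groups (horizontal axis, ordered D4, D3, A3, wt). Filled points are CPA-treated tumours, open points control tumours, and bars give the mean and SD. PLAT steps down from D4 (mean 10.98) through D3 (10.63) and A3 (10.07) to wt (9.44), F3 stands high in D4, and wt stands apart in TFPI and TFPI2.

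F3 and PLAT were chosen with their levels in untreated tumours in view, so differences between untreated lines are given below for all 8 genes as a description with no test. The CPA-treated tumours were other arrays, and differences between lines were tested there by limma with adjustment over all genes. They are of the same 4 lines, so calls of F3 and PLAT there are not independent of that choice. The counts of the 8 genes below include both, and nothing is read from them against the shares of all genes. In treated D4 against A3, 4 of the 8 genes were called at an adjusted p under 0.05, where 12.4% of all genes were called. Against wt, 5 were called in D4 (background 15.1%), 6 in D3 (16.4%) and 5 in A3 (16.3%). Treated D3 differed from A3 in 2 genes (4.55%) and treated D4 from D3 in 2 (8.05%). The 6 comparisons of lines share arrays and are not independent of each other. The median log2 difference of the 8 genes lay between 0.00 in D4 against A3 and 0.25 in D4 against wt, where the medians of all genes were -0.05 and -0.02.

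PLAT, tissue plasminogen activator, had a level of its own in each line. Its levels were 11.11, 10.97, 10.84 and 10.98 in CPA-treated D4 and 10.93, 11.08, 11.13 and 10.82 in control D4. In D3 they were 10.79, 10.39, 10.67 and 10.71 with CPA and 10.62, 10.63, 10.62 and 10.62 in controls. All 8 D4 arrays thus lay above all 8 D3 arrays. In A3 the levels were 10.23, 10.05, 9.93 and 10.21 with CPA and 9.91, 10.16 and 10.03 in controls. In wt they were 9.51, 9.41, 9.53 and 9.39 with CPA and 9.44, 9.39, 9.47 and 9.39 in controls. No 2 lines overlapped, and PLAT was the only 1 of 17314 genes (0.00578%) whose arrays separated all 4 lines in this way. That count was made after the values of PLAT had been seen and is a description. Within the groups the SD of PLAT was 0.11, against a span of 1.57 between the highest and lowest group means.

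Among treated tumours every pair of lines differed in PLAT. It was 1.83-fold higher in D4 than in A3 (log2 difference 0.87 ± 0.08 SE, adjusted p 4.2e-08) and 1.45-fold higher in D3 than in A3 (0.53 ± 0.08 SE, adjusted p 0.00018). Against wt it was higher by 1.52 in D4, 1.18 in D3 and 0.65 in A3 (adjusted p 2.7e-13, 7.9e-11 and 1.9e-06). The smallest step was D4 over D3, at 0.34 ± 0.08 SE with an adjusted p of 0.0194. That last call was lost without D3 CPA replicate 3 (0.26, adjusted p 0.0614), without D4 CPA replicate 1 (0.29, adjusted p 0.0749) or without D4 CPA replicate 2 (0.34, adjusted p 0.0560). In untreated tumours the same differences were 0.96 for D4 against A3, 0.59 for D3 against A3, 1.57 for D4 against wt, 1.20 for D3 against wt, 0.61 for A3 against wt and 0.37 for D4 against D3.

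F3, tissue factor, stood high in D4. Its levels were 8.74, 8.54, 8.63 and 8.55 in CPA-treated D4 and 8.35, 9.19, 9.27 and 8.92 in control D4. In D3 they were 7.46, 7.52, 7.33 and 7.46 with CPA and 7.77, 7.27, 7.31 and 7.30 in controls. In A3 they were 7.45, 7.0, 7.14 and 7.08 with CPA and 7.21, 7.01 and 6.80 in controls. The D4 arrays lay above all others, while D3 and A3 overlapped. The wt levels were 7.01, 6.79, 7.11 and 6.87 with CPA and 6.88, 7.34, 6.89 and 7.24 in controls, and overlapped with A3. Of the 7 gaps between neighbouring group means, 1, the gap between treated D4 and treated D3, separated groups without overlap.

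Among treated tumours F3 was 2.72-fold higher in D4 than in A3 (1.45 ± 0.15 SE, adjusted p 8.6e-08) and 3.18-fold higher than in wt (1.67 ± 0.15 SE, adjusted p 3.5e-09). D4 also exceeded D3, the other resistant clone, 2.25-fold (1.17 ± 0.15 SE, adjusted p 3.4e-05). D3 was higher than wt by 0.50 ± 0.15 SE (adjusted p 0.0199), a call that was lost without wt CPA replicate 2 (0.45, adjusted p 0.0707). The difference of D3 from A3 was 0.27 (95% interval -0.03 to 0.58, adjusted p 0.390), and that of A3 from wt was 0.22 (-0.08 to 0.52, adjusted p 0.331). Untreated, F3 differed by 1.92 between D4 and A3, by 1.84 between D4 and wt and by 1.52 between D4 and D3. The untreated difference of D3 from A3 was 0.40 and from wt 0.32.

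In the same treated D4 and A3 arrays 4 of 10 endothelial markers (KDR, TIE1, EGFL7 and ROBO4) were lower in D4, 1 of 10 fibroblast markers (LUM) was higher, and 2 of 6 epithelial markers (KRT8 and EPCAM) were higher. Of the myeloid markers 2 of 8 (CD68 and CD163) and of the platelet markers 1 of 8 (GP6) were lower. The endothelial mean was 6.38 to 6.42 in D4 and 6.56 to 6.6 in A3. In treated D4 against D3, 3 endothelial markers, 1 platelet marker (PF4) and 1 epithelial marker (CDH1) were lower and 1 endothelial marker was higher. In treated D3 against A3, 1 fibroblast marker (COL1A1) and 1 epithelial marker (EPCAM) were higher and 1 myeloid marker (CD68) was lower. The shares of all genes called were 12.4% in D4 against A3, 8.05% in D4 against D3 and 4.55% in D3 against A3. In untreated D4 against A3, 1 of 10 endothelial markers was higher and 1 was lower. There 2 of 6 epithelial markers (KRT8 and EPCAM) were higher, and no other listed marker was called. The share of all genes called in untreated D4 against A3 was 3.77%.

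Against wt, treated D4 had 1 endothelial (KDR), 1 fibroblast and 1 epithelial marker (CDH1) lower, and 1 fibroblast and 1 platelet marker (TUBB1) higher. Treated D3 had 1 endothelial, 2 fibroblast, 1 epithelial (CDH1) and 1 luminal marker (ACP3) lower than wt, and 2 endothelial, 1 fibroblast and 1 platelet marker (TUBB1) higher. Treated A3 had 3 of 6 epithelial markers (KRT8, EPCAM and CDH1), 2 of 10 fibroblast markers (COL3A1 and LUM) and 1 of 10 endothelial markers lower than wt, and 3 endothelial markers and 1 myeloid marker (CD68) higher. These are the same arrays in which F3, TFPI, TFPI2, PLAT, PLAU and SERPINE2 were called between lines, and the part of the marker differences in those calls was not tested. The shares of all genes called against wt were 15.1% in D4, 16.4% in D3 and 16.3% in A3.

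**Figure D2:**
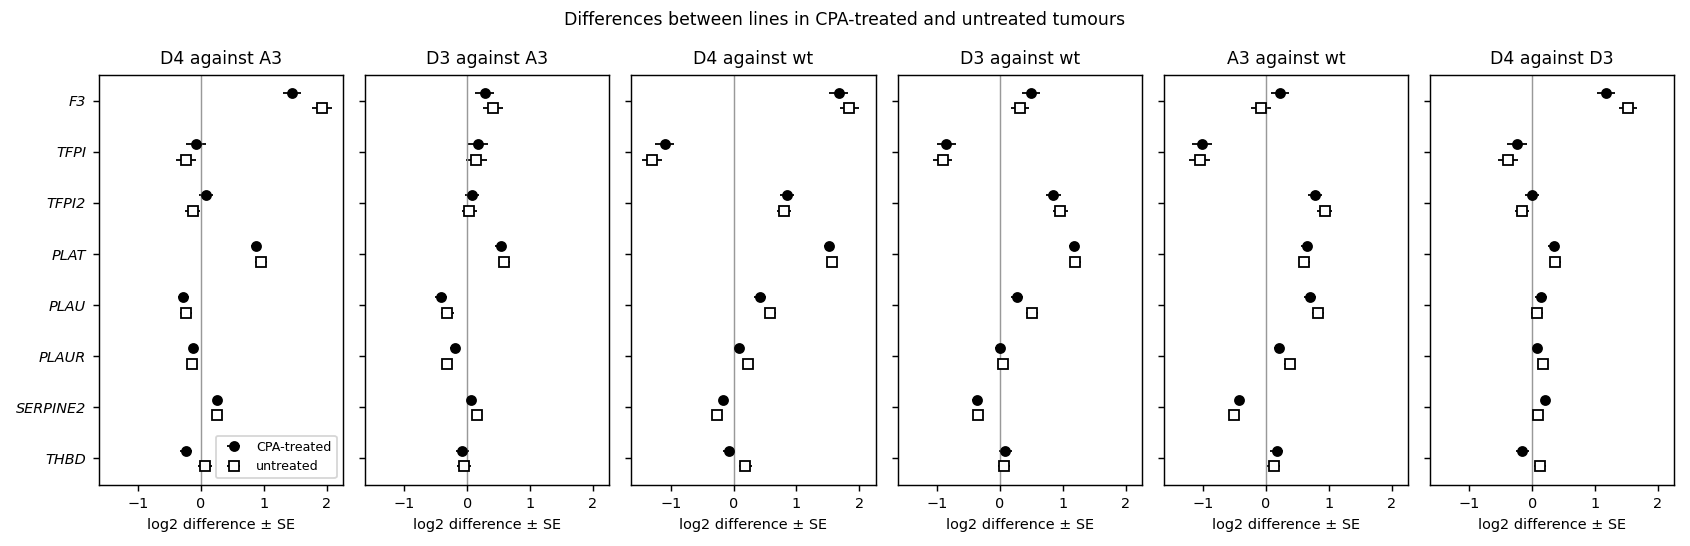
Log2 difference of each of the 8 genes between 2 lines, 1 panel for each pair (horizontal axis, bars give the SE). Filled circles are CPA-treated tumours, which were tested, and open squares untreated tumours, which are described. F3 in D4 against A3 lies at 1.45 in treated and 1.92 in untreated tumours, and PLAT at 0.87 and 0.96.

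TFPI, which inhibits the tissue factor complex, was lower in all 3 clones than in wt. Its levels were 9.57, 9.34, 9.55 and 9.62 in CPA-treated D4 and 9.55, 9.58, 8.78 and 9.53 in control D4. They ran from 9.67 to 9.87 over the 8 arrays of D3 (median 9.75) and from 9.08 to 9.91 over the 7 of A3 (median 9.69). In wt the levels were 10.36, 10.73, 10.68 and 10.70 with CPA and 10.48, 10.85, 10.68 and 10.62 in controls, above every array of the clones. Among treated tumours TFPI was 2.14-fold lower in D4 (-1.10 ± 0.15 SE), 1.81-fold lower in D3 (-0.85) and 2.03-fold lower in A3 (-1.02) than in wt, with adjusted p-values of 7.0e-06, 0.00025 and 1.7e-05. Between the clones it was not called, at -0.08 for D4 against A3, 0.17 for D3 against A3 and -0.24 for D4 against D3. In untreated tumours D4, D3 and A3 differed from wt by -1.30, -0.91 and -1.06. The untreated D4 value rested in part on replicate 4 at 8.78, and over 40 other settings it ran from -1.37 to -1.10. The untreated A3 value rested in part on replicate 2 at 9.08. Without it A3 differed from wt by -0.80, D4 from A3 by -0.50 instead of -0.24, and D3 from A3 by -0.12 instead of 0.15.

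TFPI2, the inhibitor of plasmin, ran the other way and was higher in all 3 clones than in wt. Its levels were 9.33 to 9.70 in D4 (median 9.47), 9.35 to 9.79 in D3 (9.58) and 9.25 to 9.82 in A3 (9.49). In wt they were 8.81, 8.75, 8.70 and 8.67 with CPA and 8.20, 8.84, 8.58 and 8.75 in controls. No wt array reached the levels of any clone, while the clones overlapped each other. Among treated tumours TFPI2 was 1.81-fold higher in D4 (0.85 ± 0.11 SE), 1.81-fold higher in D3 (0.85) and 1.71-fold higher in A3 (0.77) than in wt, with adjusted p-values of 2.6e-06, 3.3e-06 and 9.4e-06. The differences between treated clones were 0.08 for D4 against A3, 0.08 for D3 against A3 and 0.00 for D4 against D3, each with a 95% interval within -0.23 and 0.31. In untreated tumours the differences from wt were 0.80 in D4, 0.96 in D3 and 0.93 in A3.

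**Figure D3:**
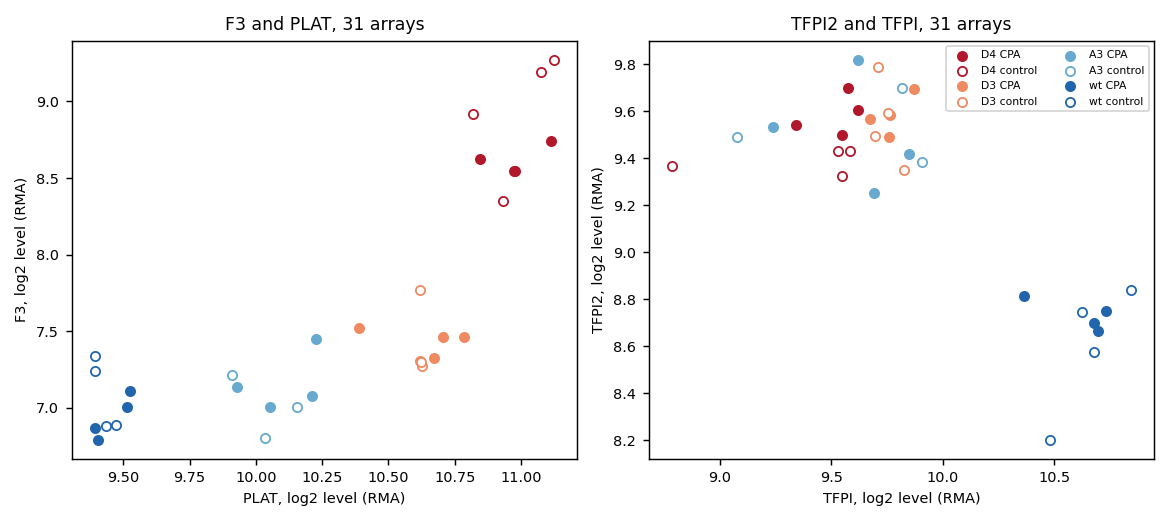
Left, F3 level against PLAT level; right, TFPI2 level against TFPI level, with 1 point for each of 31 arrays (log2 units on both axes; colour gives the line, filled points CPA, open points control). D4 forms a group high in both F3 and PLAT, and wt one high in TFPI and low in TFPI2.

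Across the 31 arrays F3 and PLAT correlated at Pearson r 0.786 and Spearman rho 0.838, and TFPI and TFPI2 at r -0.783 and rho -0.522. TFPI and PLAT correlated at r -0.820. The arrays of a line share their cells, and once each group's mean was taken away these correlations were 0.194, 0.077 and -0.522. Over all 28 pairs of the 8 genes the correlation of such deviations ran from -0.571 to 0.583. These are descriptions of 31 arrays in 4 lines. The arrays farthest from their groups over all genes, D4 control replicate 4 and A3 control replicate 2, were low in TFPI (8.78 and 9.08). Their part in the correlations of TFPI was not tested.

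PLAU, the uPA gene, was ordered differently from PLAT, with A3 at the top. Its levels were 10.74 to 11.19 in D4, 10.64 to 11.04 in D3, 11.12 to 11.33 in A3 and 10.21 to 10.82 in wt. A3 overlapped with D4 alone, and wt overlapped with both resistant clones. Among treated tumours PLAU was 1.62-fold higher in A3 than in wt (0.70 ± 0.09 SE, adjusted p 2.3e-06), and higher than wt by 0.42 in D4 (adjusted p 0.0018) and by 0.28 in D3 (adjusted p 0.0388). It was lower than in A3 with a log2 difference of -0.42 in D3 (adjusted p 0.0056) and of -0.28 in D4 (adjusted p 0.0446).

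2 of these PLAU calls were near the threshold. The call of D4 against A3 was lost in 14 of 40 other settings, with adjusted p-values up to 0.121, among them without any 1 of the 4 CPA-treated A3 arrays, without D4 CPA replicate 1, 2 or 5, without wt CPA replicate 5 and without D3 control replicate 2, 3 or 5. The call of D3 against wt was lost in 8 of 40, with adjusted p-values up to 0.133, among them without wt CPA replicate 2, 3 or 5 and without D3 CPA replicate 2 or 4. Untreated, PLAU differed from wt by 0.83 in A3, 0.59 in D4 and 0.51 in D3. Untreated D4 and D3 differed from A3 in PLAU by -0.24 and -0.32, the latter without overlap of arrays.

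PLAUR, the uPA receptor, had 8.98, 8.88, 8.74 and 8.67 in CPA-treated A3 and 9.02, 9.07 and 9.02 in control A3, which had the highest group mean. D4 had 8.67, 8.63, 8.79 and 8.71 with CPA and 8.82, 8.81, 9.05 and 8.87 in controls. The levels in D3 ran from 8.42 to 8.79 (median 8.69) and those in wt from 8.49 to 8.73 (8.65). PLAUR was not called between any pair of treated lines. The nearest was A3 against wt at 0.21 ± 0.08 SE with an adjusted p of 0.0644, and 8 of 40 other settings called it. Without A3 CPA replicate 4 it was 0.26 (adjusted p 0.0258) and without wt CPA replicate 1 it was 0.25 (adjusted p 0.0373). In untreated tumours A3 exceeded wt by 0.37 and D4 exceeded wt by 0.23, and D3 was below A3 with a log2 difference of -0.32, each without overlap of arrays.

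SERPINE2, an inhibitor of thrombin and of both plasminogen activators, was highest in wt and lowest in A3. Its levels were 9.83 to 10.1 in D4 (median 10.0), 9.75 to 9.93 in D3 (9.84), 9.54 to 9.84 in A3 (9.76) and 10.2 to 10.3 in wt (10.2). Each array of wt lay above each array of the clones. Among treated tumours it was lower than wt with a log2 difference of -0.43 in A3 (adjusted p 4.0e-05) and of -0.37 in D3 (adjusted p 0.00033), and higher in D4 than in A3 by 0.26 ± 0.07 SE (adjusted p 0.0121). The difference of D4 from wt was -0.17 (adjusted p 0.110) and that of D4 from D3 was 0.20 (adjusted p 0.0571), each without overlap of arrays. The D4 difference from D3 was called in 7 of 40 other settings and the D4 difference from wt in 2. Untreated, SERPINE2 differed from wt by -0.51 in A3, -0.35 in D3 and -0.26 in D4. Without A3 control replicate 2, at 9.54, the A3 value was -0.42, the D4 difference from A3 was 0.16 instead of 0.25 and the D3 difference from A3 was 0.07 instead of 0.16.

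THBD, thrombomodulin, varied least between groups, with a span of 0.30 between the highest and lowest group means and an SD within groups of 0.14. Its levels ran from 6.22 to 6.75 in D4, 6.37 to 6.68 in D3, 6.47 to 6.71 in A3 and 6.16 to 6.75 in wt. All 4 lines overlapped. The mean of THBD over the 31 arrays, 6.51, lay above that of 38.8% of genes. THBD was not called between any pair of treated lines, and the largest treated difference was -0.24 for D4 against A3 (95% interval -0.44 to -0.03, adjusted p 0.112), called with array weights (adjusted p 0.0222). Untreated, THBD differed from wt by 0.19 in D4, 0.12 in A3 and 0.06 in D3, each with overlap of arrays.

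In untreated tumours, over the 8 genes and 6 pairs of lines, 28 of 48 combinations had arrays that did not overlap. Over all genes the share was 15.2%. The choice of F3 and PLAT rests on these contrasts, and nothing is read from the count.

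Treatment with CPA left the 8 genes without a call in any line. 0 of 8 were called in D4 (1.03% of all genes were called there), 0 in D3 (0.231%), 0 in A3 (0.352%) and 0 in wt (0.0462%). At an unadjusted p under 0.05 there were 3 in D4 (F3, PLAUR and THBD), 0 in D3, 1 in A3 (PLAUR) and 1 in wt (PLAU). The share of all genes under that limit was not counted, so nothing is read from these numbers. With array weights 1 of the 8 was called in D4, THBD, and 0 in each other line. The labels do not give the schedule of CPA dosing, so the levels at other times after CPA are not known.

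F3 in D4 was 8.61 ± 0.09 with CPA and 8.93 ± 0.42 in controls (SD, n = 4 each), a difference of -0.32 with a 95% interval of -0.62 to -0.02 and an adjusted p of 0.209. Leaving out 1 array or changing the setting moved it between -0.51, without D4 control replicate 1, and -0.20. THBD in D4 had 6.22, 6.39, 6.29 and 6.52 with CPA, against 6.75, 6.61, 6.51 and 6.75 in controls. Its difference was -0.30 (95% interval -0.51 to -0.09, adjusted p 0.110), and with array weights it was -0.34 with an adjusted p of 0.0487. The groups overlapped in 1 array each.

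CPA minus control for PLAUR was -0.19 in D4 (adjusted p 0.157) and -0.22 in A3 (adjusted p 0.550), both without overlap of arrays and neither called. In D3 it differed by -0.10 and in wt by -0.05. TFPI2 in D4 was 9.59 ± 0.09 with CPA and 9.39 ± 0.05 in controls (SD, n = 4 each) and did not overlap, at an adjusted p of 0.299. Arrays without overlap were thus seen for 2 of 8 genes in D4 (9.97% of all genes), 0 in D3 (9.60%), 1 in A3 (5.04%) and 0 in wt (2.15%). PLAT differed by -0.01 in D4, 0.02 in D3, 0.07 in A3 and 0.04 in wt, with 95% intervals that all lay within -0.18 and 0.26. Its step between neighbouring lines was at least 0.34 in treated tumours.

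**Figure D4:**
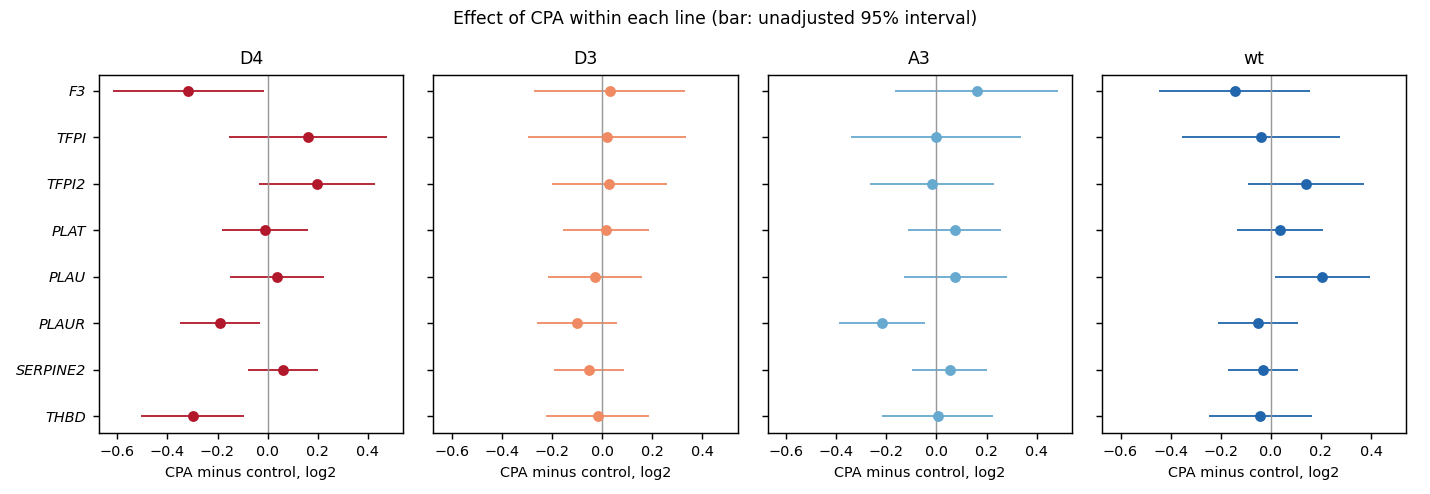
CPA minus control for each of the 8 genes within each line (horizontal axis, log2 units; bars give the unadjusted 95% interval). None was called after adjustment over all genes, and the points lie between -0.32 and 0.21.

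The effect of CPA was also compared between lines. In 6 pairs of lines and 8 genes, 0 of 48 differences were called, where 0.0144% of all gene and pair combinations were called (0.0866% in D4 minus D3 and 0 in the other pairs). The CPA effect on F3 in D4 minus that in A3 was -0.48 (95% interval -0.92 to -0.03, adjusted p 0.330) and in D4 minus D3 it was -0.35 (adjusted p 0.269). For THBD the effect in D4 minus that in A3 was -0.30 (adjusted p 0.345). F3 and THBD in D4 against A3 were the 2 of 48 with an unadjusted p under 0.05, and the share over all genes was not counted.

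The other genes of the pathway were taken from 5 lists with 60 measured genes that are none of the 8. SERPINB2 and F2RL1 were not analysed here. In treated tumours 7 of 60 were called in D4 against A3 (4 higher, 3 lower), 4 in D3 against A3 (2 and 2), 9 in D4 against wt (3 and 6), 11 in D3 against wt (4 and 7), 13 in A3 against wt (5 and 8) and 3 in D4 against D3 (1 and 2). The shares of all genes called in these comparisons were 12.4%, 4.55%, 15.1%, 16.4%, 16.3% and 8.05%. In untreated tumours the counts were 5 in D4 against A3 (3.77% of all genes called), 2 in D3 against A3 (2.27%), 12 in D4 against wt (20.1%), 16 in D3 against wt (18.1%), 15 in A3 against wt (18.5%) and 1 in D4 against D3 (0.323%). CPA against control called 0 of 60 in every line, with 14, 8, 7 and 0 at an unadjusted p under 0.05 in D4, D3, A3 and wt. The share of all genes at that unadjusted limit was not counted, so nothing is read from the unadjusted numbers.

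F7, whose product binds tissue factor, F10, which that complex activates, and PLG, the plasminogen gene, were not called between any lines or with CPA. In treated D4 they averaged 6.29, 6.46 and 4.79, below the array medians of 6.59 to 6.73. No detection limit was set, so the lack of a call does not show steady expression. F2R, the thrombin receptor PAR1, was lower than wt in untreated A3 (-0.34 ± 0.08 SE, adjusted p 0.0024) and in untreated D4 (-0.24, adjusted p 0.0208), and was not called between treated lines.

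Of the 27 measured coagulation factors and regulators, PROS1, FGB and SERPIND1 were called most often between lines. PROS1, the gene of protein S, a cofactor of activated protein C and of TFPI, averaged 8.50 ± 0.07 in treated D4, 8.22 ± 0.05 in treated D3, 8.76 ± 0.18 in treated A3 and 9.15 ± 0.12 in treated wt (SD, n = 4 each). It was lower than wt in each treated clone, with log2 differences of -0.65 in D4, -0.93 in D3 and -0.39 in A3 (adjusted p 1.4e-05, 8.2e-08 and 0.0041). FGB, the fibrinogen beta chain, separated the resistant clones at low levels. Its group means ran from 5.26 in control D4 to 6.21 in treated D3, below the array medians of 6.59 to 6.73. No detection limit was set. FGB was lower in D4 than in D3 with a log2 difference of -0.68 ± 0.11 SE in treated tumours and of -0.85 ± 0.11 SE in untreated ones (adjusted p 0.00095 and 3.2e-05). SERPIND1, the thrombin inhibitor heparin cofactor II, was lower than in A3 with a log2 difference of -0.59 in treated D4 and -0.40 in treated D3 (adjusted p 0.00012 and 0.0111), and higher in treated A3 than in wt by 0.60 (adjusted p 4.0e-05).

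In the plasminogen system, with 12 measured genes, SERPINI1 (neuroserpin), a serpin that inhibits tPA, was called in 4 of the 6 comparisons of treated lines. It averaged 6.12 ± 0.22 in treated D4, 5.81 ± 0.16 in treated D3, 5.24 ± 0.06 in treated A3 and 5.73 ± 0.21 in treated wt (SD, n = 4 each). In these groups SERPINI1 lay below the array medians of 6.59 to 6.73, with no detection limit set. Relative to A3 it was higher by 0.88 in D4 and by 0.57 in D3 (adjusted p 3.9e-06 and 0.0021), and in A3 it was lower than in wt with a log2 difference of -0.50 (adjusted p 0.0021). Its lowest treated mean was thus in A3, and that of PLAT in wt. ST14, the gene of the membrane protease matriptase, was lower in treated D4 than in A3 with a log2 difference of -0.25 (adjusted p 0.0335).

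Of 6 genes known to be induced through protease-activated receptors, CCN1, a matricellular protein, was higher than wt in each treated clone, by 0.72 in D4, 0.64 in D3 and 0.36 in A3 (adjusted p 0.0001, 0.00052 and 0.0427). CXCL8, a neutrophil chemokine, was higher than wt by 0.44 in treated D4 and 0.64 in treated A3 (adjusted p 0.0210 and 0.00081). VEGFA, the angiogenic factor, was lower than wt with a log2 difference of -0.43 in treated D3 and -0.47 in treated A3 (adjusted p 0.0274 and 0.0127). The list therefore held genes called in both directions.

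Among 12 partners and uptake receptors of uPAR, 5 were called lower than wt in treated D4, 4 in D3 and 4 in A3, with 0, 2 and 0 higher. The shares of all genes called, higher or lower, were 15.1%, 16.4% and 16.3%. The share of all genes called lower was not counted. ITGAV, the integrin alpha chain that pairs in the vitronectin receptor, was lower with a log2 difference of -0.64 in treated D4, -0.53 in treated D3 and -0.90 in treated A3 (adjusted p 0.00039, 0.0033 and 3.9e-06). SORL1, a sorting and endocytic receptor, was lower with a log2 difference of -0.61, -0.51 and -0.43 in treated D4, D3 and A3 (adjusted p 8.3e-05, 0.00082 and 0.0033). LRP1, which clears protease and inhibitor complexes, was lower in treated D4 than in wt with a log2 difference of -0.59 (adjusted p 0.0019). LRP2, a related receptor, was higher in treated D4 than in D3 by 0.38 (adjusted p 0.0125).

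**Figure D5:**
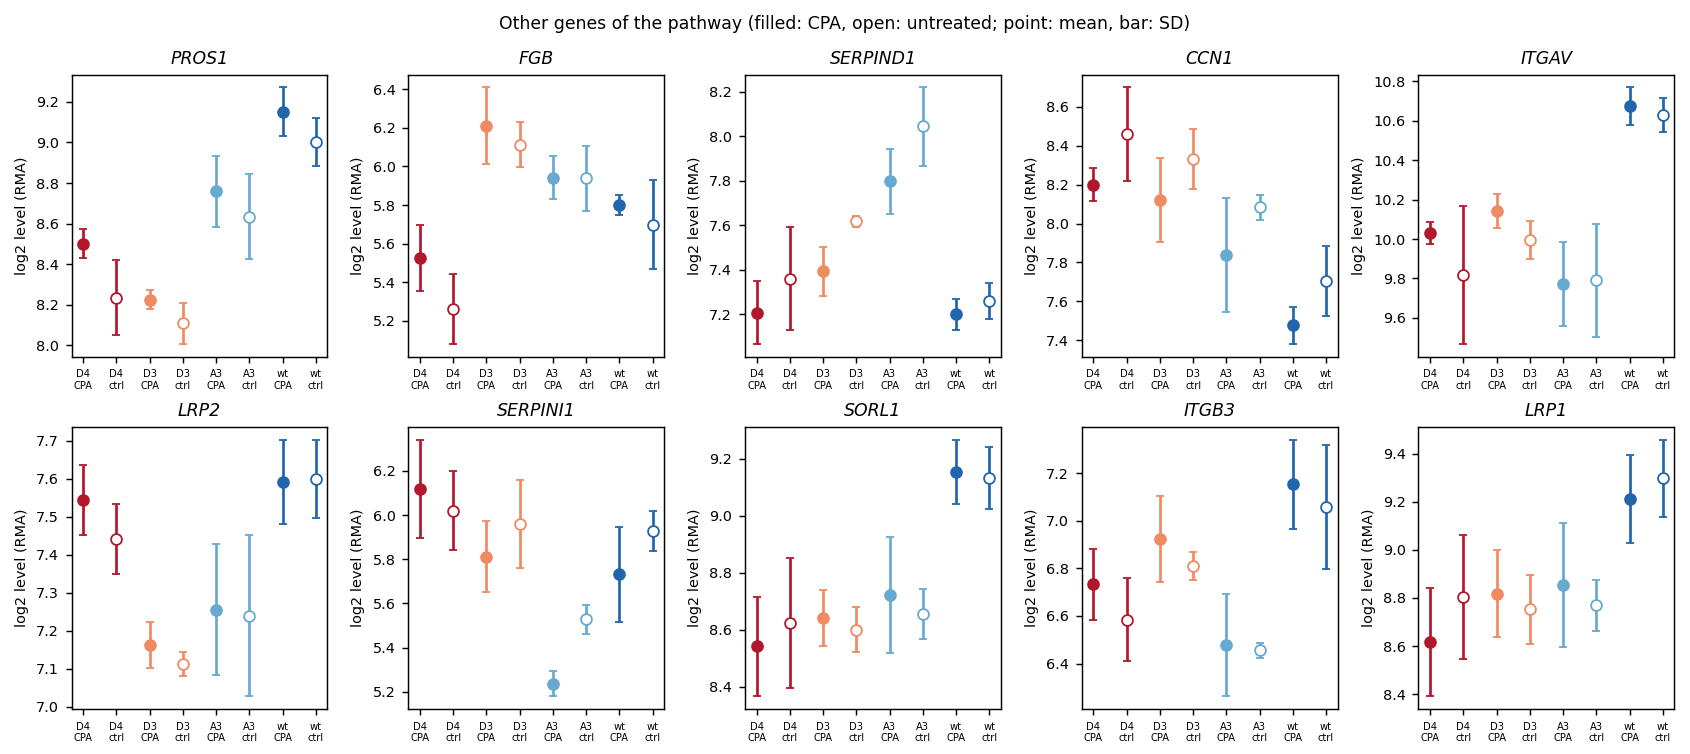
Mean log2 level and SD in the 8 groups (horizontal axis, D4, D3, A3, wt) of the 10 other pathway genes called in the most comparisons of lines, a choice made after the calls were known; VEGFA, tied at 5 of 12 comparisons with ITGB3 and LRP1, is not drawn. PROS1, ITGAV and SORL1 are highest in wt, FGB is lowest in D4, and SERPINI1 is lowest in A3.

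Likeness of pattern was measured by the Pearson correlation over the 31 arrays, without a test, since the arrays share 4 lines. The genes most like F3 were ME1 (r 0.905, rho 0.819), MBTPS1 (r 0.891, rho 0.819) and PHLPP2 (r 0.872, rho 0.790). Most like PLAT were KARS1 (r 0.957, rho 0.939), EMP2 (r 0.953, rho 0.947) and UTP4 (r 0.942, rho 0.914). 5 of these 6 genes, all but ME1, lie on chromosome 16, which holds 723 of the 17290 genes with a known chromosome (4.18%). F3 itself lies on chromosome 1 and PLAT on chromosome 8. This was noticed after the list was made and was not tested. ME1 averaged 9.39 ± 0.13 in treated D4, 8.56 ± 0.09 in treated D3, 8.28 ± 0.08 in treated A3 and 8.34 ± 0.12 in treated wt (SD, n = 4 each). KARS1 averaged 10.0 ± 0.09, 9.86 ± 0.08, 9.57 ± 0.11 and 9.42 ± 0.06 in treated D4, D3, A3 and wt. For the other 6 genes the most alike were HAPLN1 with TFPI (r 0.972), FUT8 with TFPI2 (0.919), NF2 with PLAU (0.945), DTD1 with PLAUR (0.876), MILR1 with SERPINE2 (0.947) and MYL11 with THBD (0.850). After the group means were taken away, r was 0.163 for ME1 with F3, 0.583 for KARS1 with PLAT and 0.854 for HAPLN1 with TFPI. The part of D4 control replicate 4 and A3 control replicate 2, both low in TFPI, in the last value was not tested.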

How the data were processed

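Each of 31 tumour RNAs was hybridised to an Affymetrix Human Gene 1.0 ST array. The deposited values are log2 levels made by the authors with RMA, per the submitters' processing notes; its version is not given in the sources used here. RMA equalises the distributions of the arrays, so a shift shared by all genes is removed. The submitters omitted 1 array as an outlier, and it was not analysed here.

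Of 23989 probe sets, 17624 carried 1 gene symbol, 411 several and 5954 none. The set with the highest mean was kept for 276 genes with several sets, which left 17314 genes, of which 17290 matched RefSeq. All were fitted with limma 3.58.1 in R 4.3.3 (lmFit, eBayes), with a mean for each of 8 groups, 23 residual degrees of freedom and Benjamini-Hochberg adjustment over all genes. Calls were made where the adjusted p was under 0.05. The number of arrays limits the precision (median residual SD 0.148).

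The 8 genes and the lists were chosen with earlier results of these data known. Besides the 8, up to 3 called genes per list and comparison with the smallest adjusted p could be named, with PLG, F7, F10 and F2R (2 further genes of the rule are not reported here), and the genes most alike in pattern (3 for F3 and PLAT, 1 for each other).

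Same-numbered arrays of 2 groups deviated together, at over 0.1 in every pair, in 2 of 16 comparisons with shared replicate numbers, untreated D3 against wt (0.155 to 0.408) and untreated D4 against D3 (0.214 to 0.425). Alternatives were other samples in the fit, the replicate block, a variance trend, array weights, quantile normalization, median centring, a filter on dim genes, all probe sets, leaving out each array, and leaving out the 4 arrays farthest from their group means, the last chosen after seeing the data.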

Additional observations from a re-analysis of the deposited data

Results flagged for a closer look

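In groups of 4 arrays, 1 array stood far from the others in 5 of 56 groups of a gene, by Dixon's criterion, which chance alone meets in about 1 of 20. F3 in D3 control replicate 1 was 7.77, against 7.27 to 7.31 in the other D3 controls. TFPI in D4 control replicate 4 was 8.78, against 9.53 to 9.58, and this array also lay farthest from its group over all genes. TFPI in wt CPA replicate 1 was 10.4, below the other treated wt arrays at 10.7. PLAU in A3 CPA replicate 2 was 11.2, against 11.3 in the other 3. THBD in D3 control replicate 5 was 6.38, against 6.57 to 6.6.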

How the results depend on the processing

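Under array weights THBD was called with CPA in D4, so that 1 of the 8 genes was called there instead of 0, and of the 60 other pathway genes 82 calls instead of 47 were made between treated lines and 1 instead of 0 with CPA. With quantile normalization 1 of the 8 genes instead of 2 was called in treated D4 against D3, since PLAT there fell short (0.27, adjusted p 0.0596). Leaving out 1 array at a time gave 1 to 3 genes in that comparison and 0 to 1 other pathway genes with CPA. TFPI in untreated D3 against A3 changed from 0.15 to -0.12 without A3 control replicate 2, and likewise with the 4 arrays left out that lay farthest from their groups, which include it; leaving out other arrays one at a time took it up to 0.30, without A3 control replicate 4. The replicate number as a block left the counts of the 8 genes at 3 in treated D4 against A3 and 5 in D3 against wt, where PLAU was lost (adjusted p 0.0606 and 0.0710). In the 2 untreated comparisons whose same-numbered arrays deviated together, the block gave 15 instead of 16 other pathway genes in D3 against wt. In D4 against D3 there was 1 in both fits, and the block changed no other call of the 8 genes. The labels do not say that replicate numbers pair arrays. Of the tested values of the 8 genes, 3942 kept their side of the threshold with 1 array left out, 20 lost a call and 6 gained one. Under the other settings these were 1132, 7 and 13. No called value changed direction, and changes of direction in values without a call were not counted. Groups of 3 or 4 arrays limit what can be told apart, and differences near 0.2 were mostly not called.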
